A study of Mus musculus with 60 samples.

Results

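Primary mouse hepatocytes were exposed to interleukin 6 (IL-6) together with hepatocyte growth factor (HGF), or to HGF alone, and the difference that IL-6 made on top of HGF was measured at 8 and 16 h of stimulation. The comparison holds 8 of the 60 arrays of the series, chosen by their titles: at each hour, 2 arrays of cells with both factors (the combination arrays) and 2 arrays of cells with HGF (the HGF arrays). All cells were liver cells of male C57BL/6N mice aged 8 to 12 weeks, taken from 1 animal or pooled from up to 3. Cells were plated on collagen I with 10% serum, 100 nM dexamethasone and 10 µg/ml insulin, given 4 h to attach and then kept 24 h in serum-free medium. Dexamethasone at 100 nM stayed in that medium, so every group, unstimulated cells included, was exposed to a glucocorticoid. HGF was recombinant mouse protein at 40 ng/ml, and IL-6 was recombinant human protein at 40 ng/ml acting on mouse cells. At the same hours, 2 arrays each of cells with IL-6 alone and of unstimulated cells show what IL-6 did without HGF, and they share no array with the main comparison. The protocol speaks of 3 biological replicates and 2 arrays per group were analysed here. No label ties an array to an animal, so every p-value rests on how far the arrays of a group lie apart, a spread that may be technical, and precision is limited by there being 2 arrays a group. The title of the series names the cross-talk of the 2 factors and the chemokine gene Cxcl10 as its subject.

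IL-6 binds its receptor Il6ra together with the signalling subunit gp130, the product of Il6st, which activates Janus kinases and the transcription factor STAT3. In hepatocytes STAT3 drives the acute phase response, the change in secreted plasma proteins after injury or infection, and induces Socs3, which shuts the receptor off again. HGF acts through the receptor tyrosine kinase Met and the MAP kinase and PI3 kinase pathways, and is known as a growth factor for hepatocytes.

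Values are log2 intensities, so a difference of 1 is a factor of 2 in intensity, and a difference is always the mean of the combination arrays minus the mean of the HGF arrays at the same hour. A gene rose or fell where limma's moderated test, adjusted by Benjamini-Hochberg over all 14513 genes tested, gave an adjusted p under 0.05. Of all 14513 genes, 7614 at 8 h and 7868 at 16 h had no overlap between combination and HGF arrays. Among genes past the threshold, 2133 of 2137 at 8 h and 2286 of 2290 at 16 h had none. Lack of overlap is therefore common and adds little to a call. Array medians lay between 4.88 and 4.97 and replicate arrays correlated at 0.99676 to 0.99833. The 10 hepatocyte markers tested averaged 11.67 to 11.80 at 8 h and 10.89 to 11.06 at 16 h, against 5.21 to 6.02 for the marker lists of Kupffer, stellate, endothelial, bile duct and blood cells. At 8 h the hepatocyte marker mean was 11.80 on both HGF arrays and 11.67 and 11.68 on the combination arrays. Of the tested markers on those other lists, Krt19 alone passed at 8 h (-0.43), and at 16 h Krt19 (-0.58), Sox9 (0.75), Cd5l (0.49) and Cdh5 (0.32). The call for Krt19 at 8 h was lost without any 1 of the 4 arrays (-0.45 to -0.41), and at 16 h without HGF replicate 2 (-0.50) and combination replicate 1 (-0.33). Of the added hybridisation controls, bioB read 5.47 to 5.93 on the combination arrays and 6.06 to 6.32 on the HGF arrays, and bioC 9.91 to 9.98 and 9.70 to 9.80. On the arrays used for the comparison with IL-6 alone, bioB read 8.30 to 8.40 in unstimulated cells, 7.05 on both IL-6 arrays of 8 h and 5.51 and 5.92 on those of 16 h. Neither control overlapped between the combination and HGF groups, and the part of these differences in the results was not tested. In such bulk samples fewer cells of a type and less RNA per cell cannot be told apart.

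Adding IL-6 to HGF changed the level of about as many genes at 8 h as at 16 h. At 8 h 2137 genes passed (14.7% of those tested): 823 rose (5.67%) and 1314 fell (9.05%), and after quantile normalization 1004 rose and 1033 fell. At 16 h 2290 genes passed (15.8%): 1252 rose (8.63%) and 1038 fell (7.15%). Each list count below stands against these shares over all genes, and a list near them differs little from genes at large. Changes of at least 2-fold were mostly rises, 59 against 17 falls at 8 h (0.407% and 0.117%) and 102 against 24 at 16 h (0.703% and 0.165%). Of the genes called, 1081 passed at both hours, which is 50.58% of the 8 h genes and 47.21% of the 16 h genes, and 1034 of them kept their direction (544 higher, 490 lower). Leaving out HGF replicate 2 of 8 h gave 1410 genes at that hour, and leaving out combination replicate 1 of 8 h gave 1326. The 16 h count was 1499 without combination replicate 2 of 16 h, with 741 rises and 758 falls, so the excess of rises at that hour turned. Members of counts of 5 or fewer that are named below but lie outside the naming rule were named after their values were seen.

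**Figure D1:**
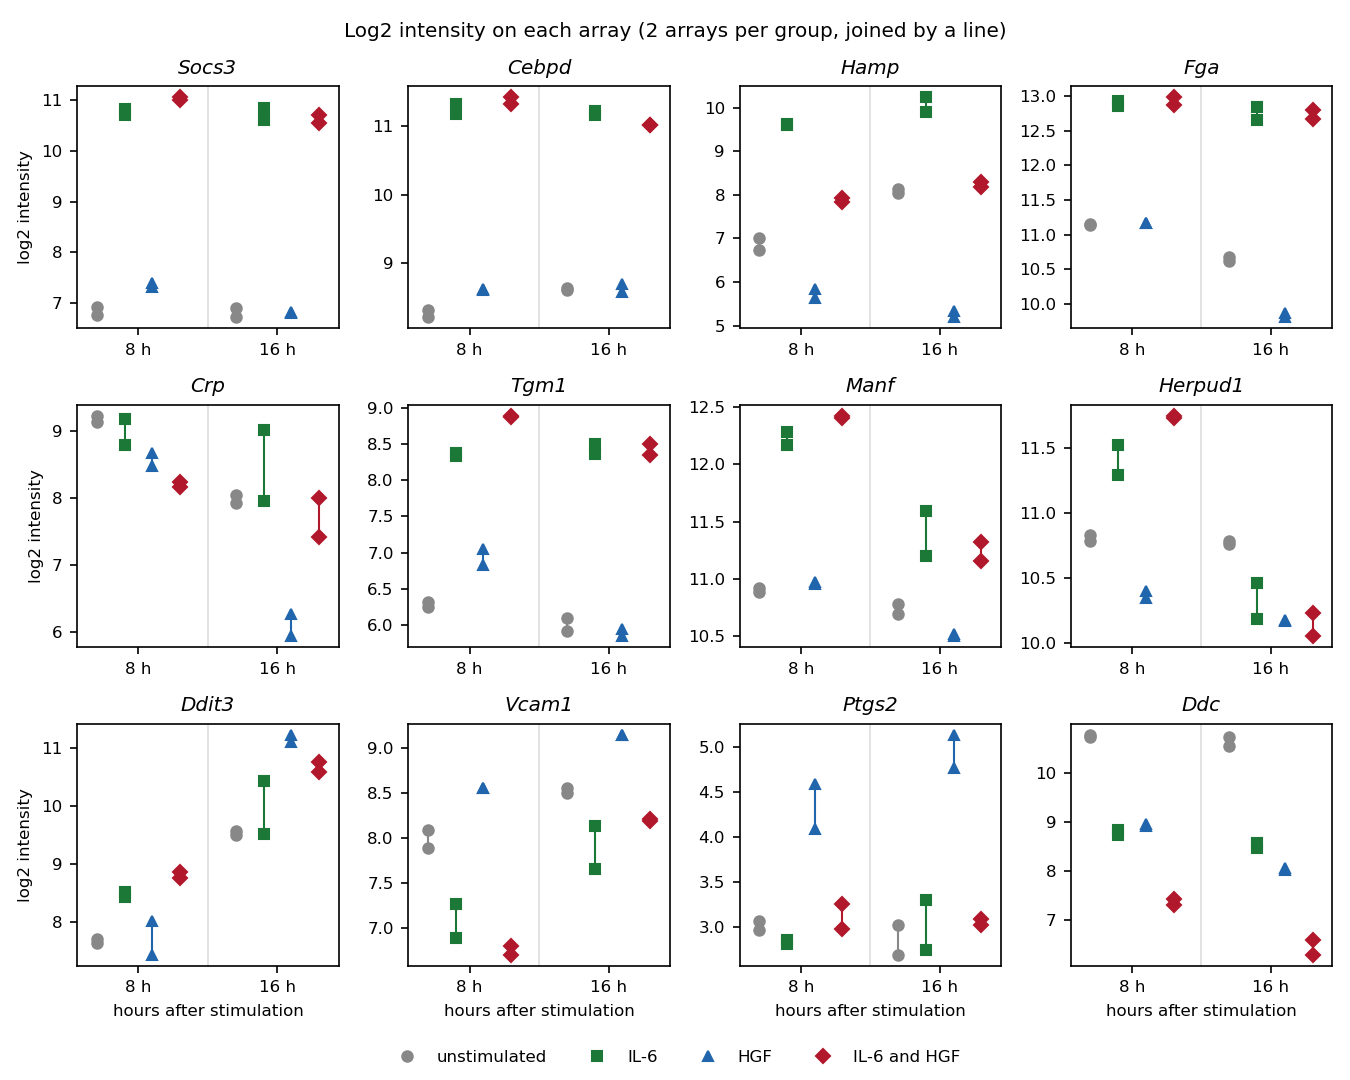
Log2 intensity (y axis) of 12 genes on each array, with unstimulated cells, IL-6, HGF and the combination in that order at 8 h and at 16 h (x axis); the 2 arrays of a group are joined by a line. Socs3, Cebpd, Fga and Tgm1 lie near the level of IL-6 alone once IL-6 is added to HGF, whereas Herpud1 and Ddit3 are higher than with HGF at 8 h and not at 16 h.

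The feedback inhibitor Socs3, which blocks gp130 signalling, had the largest rise of all genes tested at both hours. It read 7.40 and 7.32 on the HGF arrays of 8 h, against 11 and 11.05 on the combination arrays, and 6.82 and 6.80 against 10.55 and 10.70 at 16 h. The groups lay far apart at both hours. The difference was 3.67 (SE 0.09, adjusted p = 5.58e-33) at 8 h and 3.81 (SE 0.09, adjusted p = 1.1e-33) at 16 h, and IL-6 without HGF gave 3.91 and 3.90. Cish, an inhibitor of STAT5 signalling, rose by 0.79 (SE 0.09) and 1.00 (SE 0.09). Socs2, which restrains growth hormone signalling, read 8.26 and 8.40 with HGF and 8.67 and 8.66 with both factors at 8 h, then 7.78 and 7.75 against 8.79 and 8.98. Its difference grew from 0.33 (SE 0.08) to 1.13 (SE 0.08), a change of 0.79 (SE 0.11, adjusted p = 2.73e-06); its 8 h value was 0.27 without HGF replicate 1 of 8 h and 0.16 over the mean of its probe sets, neither past the threshold, and its 16 h value over that mean was 0.55. Of the 15 feedback genes tested 5 rose at 8 h and 4 at 16 h, and none fell. Ptpn2, a phosphatase for Janus kinases, was the fifth at 8 h (0.20), and the 8 h count was 3 without HGF replicate 1.

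The promoter of Socs3 is shown with those of the liver peptide hormone gene Hamp and the fibrinogen chain gene Fga because these 3 genes are among the 8 largest rises at 16 h and each holds a palindromic letter pattern to which STAT factors bind. The pattern searched was TTCNNNGAA, which reads the same on both strands, in the 250 bases before to the 50 bases after each RefSeq start (build GRCm38.p6), and promoters were found for 11639 of the 14513 genes. Capitals mark the pattern in the 250 bases before the start, 5′ to 3′ on the gene's strand. Socs3 lies on the minus strand (chr11:117969367-117969616), Hamp on the minus strand (chr7:30944030-30944279) and Fga on the plus strand (chr3:83025903-83026152). The first base of the pattern lies 154, 97 and 234 bases before the start in Socs3, Hamp and Fga.
Socs3: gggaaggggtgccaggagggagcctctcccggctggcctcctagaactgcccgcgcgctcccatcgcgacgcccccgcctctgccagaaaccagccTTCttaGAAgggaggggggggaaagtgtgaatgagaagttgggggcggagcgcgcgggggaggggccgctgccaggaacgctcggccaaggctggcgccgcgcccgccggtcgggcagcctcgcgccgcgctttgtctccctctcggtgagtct
Hamp: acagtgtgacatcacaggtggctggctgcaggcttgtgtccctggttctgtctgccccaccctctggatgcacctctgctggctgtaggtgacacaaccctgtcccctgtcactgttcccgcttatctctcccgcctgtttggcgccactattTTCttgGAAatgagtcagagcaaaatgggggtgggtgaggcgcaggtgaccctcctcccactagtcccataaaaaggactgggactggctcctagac
Fga: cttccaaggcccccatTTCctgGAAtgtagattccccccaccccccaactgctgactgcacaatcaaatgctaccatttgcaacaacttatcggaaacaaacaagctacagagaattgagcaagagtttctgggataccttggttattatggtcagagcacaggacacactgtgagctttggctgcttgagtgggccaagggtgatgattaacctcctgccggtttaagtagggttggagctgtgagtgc
The pattern was present in the promoters of 8.36% of all genes. It was present in 9 of the 47 promoters (19.1%) of genes at least 2-fold higher at 8 h and in 14 of 76 (18.4%) at 16 h. At least 2-fold lower genes had it in 0 of 11 promoters at 8 h and in 3 of 16 (18.8%) at 16 h, and all called risers in 10.3% and 9.84%. A match to these letters is a description and not a bound site.

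Of 13 receptor subunits, Janus kinases and STAT genes tested, 4 rose and 1 fell at 8 h, and 5 rose at 16 h. Osmr, the oncostatin M receptor that pairs with gp130, read 8.75 and 8.87 with HGF and 9.99 and 10.08 with both factors at 8 h, and 8.70 and 8.75 against 10.26 and 10.32 at 16 h. Osmr rose by 1.22 (SE 0.08) and 1.57 (SE 0.08) with no overlap, and by 0.59 and 0.91 over the mean of its probe sets. Stat3 itself rose by 0.53 (SE 0.07) and 0.78 (SE 0.07), Stat2 by 0.56 and 0.52 (SE 0.12 each), and Jak2 at 16 h by 0.37. Stat6, the factor of IL-4 signalling, was the gene that fell at 8 h (-0.21). Il6st read 9.83 and 9.83 with HGF and 10.16 and 10.14 with both at 8 h, a difference of 0.32 (SE 0.05), and 0.22 (SE 0.05) at 16 h. With the mean over all its probe sets Il6st gave 0.16 and 0.13 and did not pass. Il6ra, the IL-6 receptor chain, read 6.86 and 7.05 with HGF and 7.0 and 7.07 with both at 8 h, and its difference was 0.08 (SE 0.08) and -0.04 (SE 0.08) at 16 h, neither past the threshold. Met, the HGF receptor, fell by 0.38 (SE 0.05, adjusted p = 2.31e-07) and by 0.29 (SE 0.05); it read 10.88 and 10.84 with HGF and 10.49 and 10.47 with both at 8 h.

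Regulators known as STAT3 targets, among them transcription factors, receptors, kinases and survival proteins, rose in most cases. The rises were 13 of 20 at each hour, with 1 fall at 8 h and none at 16 h. Their median difference was 0.69 and 0.48, against -0.015 and -0.004 over all genes tested. Cebpd, a C/EBP factor of the acute phase, read 8.62 and 8.62 with HGF and 11.32 and 11.42 with both at 8 h, and 8.58 and 8.69 against 11.01 and 11.01 at 16 h. The 2.75 (SE 0.08, adjusted p = 5.48e-29) at 8 h and 2.37 (SE 0.08) at 16 h lie close to the 2.97 and 2.56 of IL-6 without HGF. Over the mean of its probe sets Cebpd rose by 1.75 at 8 h. Cebpb, its relative, rose by 0.69 (SE 0.04) and 0.53 (SE 0.04), and Bcl3, a nuclear cofactor of NF-kB, by 1.06 (SE 0.06) and 1.03 (SE 0.06). Il1r1, the receptor for interleukin 1, read 7.44 and 7.37 against 8.99 and 9.25 at 8 h, and 7.32 and 7.12 against 8.03 and 8.44 at 16 h. Its difference shrank from 1.72 (SE 0.11) to 1.02 (SE 0.11), a change of -0.70 (SE 0.15, adjusted p = 0.0025). Over the mean of its probe sets Il1r1 rose by 0.82 at 8 h and 0.49 at 16 h. Tnfaip3, an inhibitor of NF-kB, was the one that fell at 8 h (-0.33).

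Among positive acute phase proteins most calls were rises at both hours. Of 40 listed genes 37 were tested; 16 rose and 2 fell at 8 h, 23 rose and 3 fell at 16 h, and the list's median difference was 0.18 and then 0.43. For 15 of the 37 the difference was higher at 16 h than at 8 h by the test of the change itself, and for 2, the metallothioneins Mt1 and Mt2, it was lower; over all genes 596 (4.11%) passed that test, 438 higher (3.02%) and 158 lower (1.09%), with 340 and 212 after quantile normalization. The count over all genes was 386 without HGF replicate 2 of 8 h and 358 without combination replicate 2 of 16 h. Fga, a chain of fibrinogen, read 11.16 and 11.17 with HGF and 12.86 and 12.98 with both at 8 h, and 9.88 and 9.81 against 12.67 and 12.80 at 16 h. The combination arrays thus held their level while the HGF arrays stood lower at 16 h, and the difference went from 1.76 (SE 0.08) to 2.89 (SE 0.08), a change of 1.14 (SE 0.11, adjusted p = 7.34e-10). Fgg, another fibrinogen chain, went from 1.27 (SE 0.06) to 1.91 (SE 0.06), a change of 0.64 (SE 0.09). Steap4, a metalloreductase, read 9.16 and 9.23 against 10.87 and 10.75 at 8 h and 7.99 and 8.07 against 10.60 and 10.83 at 16 h. Its difference was 1.62 (SE 0.11) and 2.69 (SE 0.11). Timp1, an inhibitor of matrix proteases, rose by 2.03 (SE 0.10) and 2.19 (SE 0.10), with a change between the hours of 0.16 (SE 0.14) that did not pass.

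Crp, the C-reactive protein gene, had the largest gain in difference from 8 to 16 h of all genes past that test. It read 8.67 and 8.46 with HGF and 8.16 and 8.24 with both at 8 h, and 6.26 and 5.93 against 7.41 and 8.00 at 16 h. The 8 h difference of -0.36 (SE 0.17) did not pass, the 16 h rise was 1.61 (SE 0.17, adjusted p = 3.03e-10), and the change was 1.97 (SE 0.24, adjusted p = 1.68e-07). The interleukin 1 receptor antagonist Il1rn fell at both hours (-1.10 and -1.03), Tfpi2 fell at 8 h (-0.35), and the serum amyloid gene Saa2 (-0.41) and the lectin gene Mbl2 (-0.28) fell at 16 h. Apon, an apolipoprotein gene, gained as well: 8.87 and 8.86 with HGF against 9.33 and 9.16 at 8 h, and 7.36 and 7.34 against 8.87 and 9.13 at 16 h. Its difference went from 0.38 (SE 0.08) to 1.65 (SE 0.08), a change of 1.27 (SE 0.11, adjusted p = 2.87e-11). Of 22 tested carriers that fall in an acute phase 3 rose at each hour, and 2 fell at 8 h and 4 at 16 h. The falls were small in number and changed with single arrays. Over all genes 9.05% fell at 8 h and 7.15% at 16 h. At 8 h 1 fell without HGF replicate 1 and 0 without HGF replicate 2 or combination replicate 2, and at 16 h 1 fell without HGF replicate 2, 2 without combination replicate 1, 2 after quantile normalization and 7 in a fit on the compared arrays alone. Serpina7, the carrier of thyroxine, read 10.80 and 10.78 with HGF and 11.85 and 11.96 with both at 8 h, and 10.32 and 10.24 against 12.38 and 12.23 at 16 h. Its rises were 1.12 (SE 0.09) and 2.03 (SE 0.09), and Itih2, a protein that binds hyaluronan, rose by 0.42 (SE 0.05) and 0.57 (SE 0.05). Apoc4, a lipoprotein component, fell by 0.55 (SE 0.08) at 16 h, and Rbp4, the carrier of retinol, had a difference of -0.11 (SE 0.03).

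Hamp, the gene for the hormone hepcidin that lowers iron export from cells, read 5.62 and 5.83 with HGF and 7.84 and 7.93 with both at 8 h, and 5.19 and 5.33 against 8.30 and 8.19 at 16 h. On the IL-6 arrays it read 9.60 and 9.63 at 8 h and 10.24 and 9.90 at 16 h, above both combination arrays at each hour. The difference was 2.16 (SE 0.16) and 2.98 (SE 0.16, adjusted p = 6.01e-20). Slc39a14, an importer of zinc and iron that IL-6 is known to induce, rose by 1.29 (SE 0.09) and 1.14 (SE 0.09). Id1, a target of BMP signalling like Hamp, read 6.47 and 6.68 against 7.15 and 7.14 at 8 h and 6.73 and 6.69 against 7.89 and 8.14 at 16 h. Its difference was 0.57 (SE 0.13) and 1.31 (SE 0.13); without HGF replicate 1 of 8 h the first was 0.46 and did not pass. Tfr2, a sensor of transferrin, rose by 0.23 (SE 0.05) and 0.40 (SE 0.05). Of 17 iron genes tested 6 rose and 2 fell at 8 h, and 7 rose and 2 fell at 16 h. Slc40a1, the iron exporter, fell at both hours (-0.22 and -0.24), Hmox1, which breaks down haem, at 8 h (-0.50) and Bmp6, the ligand upstream of Hamp, at 16 h (-0.68).

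Of 24 complement genes tested 6 rose and 2 fell at 8 h, and 8 rose and 1 fell at 16 h; the first count was 3 without HGF replicate 1 of 8 h. Serping1, the inhibitor of the first complement component, read 11.17 and 11.24 with HGF and 11.71 and 11.69 with both at 8 h, and 11 and 11.02 against 11.97 and 12.05 at 16 h. It rose by 0.50 (SE 0.06) and 1.00 (SE 0.06), a change of 0.50 (SE 0.08, adjusted p = 5.48e-05). The component genes Cfb (0.71), C1s1 (0.58) and Hc (0.51) rose at 16 h with SE of 0.07, 0.06 and 0.06, and the shield protein gene Cd59a fell at both hours (-0.31 and -0.48). Among 24 coagulation and fibrinolysis genes 4 rose and 3 fell at 8 h, and 9 rose and 4 fell at 16 h. Pros1, the cofactor protein S, read 8.51 and 8.63 with HGF and 9.80 and 9.81 with both at 8 h, and 8.48 and 8.49 against 10.08 and 10.25 at 16 h. Its difference was 1.23 (SE 0.07) and 1.68 (SE 0.07). Serpinf2, the inhibitor of plasmin, rose by 0.67 (SE 0.09) and 1.00 (SE 0.09), and Serpind1, heparin cofactor II, by 0.61 and 0.96 (SE 0.08 each). Thbd, the thrombin receptor thrombomodulin, fell: it read 7.15 and 7.28 with HGF and 5.93 and 6.09 with both at 8 h, and 7.74 and 7.75 against 6.63 and 6.57 at 16 h. The falls were of -1.20 (SE 0.15) and -1.14 (SE 0.15), with no overlap. Plat, the tissue plasminogen activator, read 9.66 and 9.62 against 8.36 and 8.38 at 8 h, a difference of -1.27 (SE 0.18), but its other probe set differed by 0.25 at 8 h.

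Chaperone, translocation and degradation genes serve the folding and clearance of proteins in the endoplasmic reticulum (ER), through which a hepatocyte secretes its plasma proteins. Of 57 tested 43 rose and none fell at 8 h, with a median difference of 0.32, and at 16 h 32 rose and 4 fell, with a median of 0.19. Creld2, a stress-induced ER protein, read 9.50 and 9.51 with HGF and 11.49 and 11.51 with both at 8 h, and 9.13 and 9.21 against 10.07 and 10.40 at 16 h. Its difference shrank from 1.99 (SE 0.10) to 1.07 (SE 0.10), a change of -0.92 (SE 0.14, adjusted p = 6.19e-06). Manf, a secreted ER stress factor, read 10.97 and 10.96 against 12.43 and 12.41 at 8 h, and 10.52 and 10.50 against 11.16 and 11.32 at 16 h. It changed from 1.45 (SE 0.06) to 0.73 (SE 0.06), whereas Pdia4, a disulphide isomerase, rose by 1.53 (SE 0.09) and 1.39 (SE 0.09) with a change of -0.14 (SE 0.13) that did not pass. Sdf2l1, a cofactor of the chaperone BiP, rose by 1.92 (SE 0.09) and 1.35 (SE 0.09). Herpud1, which serves the degradation of misfolded proteins, read 10.35 and 10.40 with HGF and 11.75 and 11.73 with both at 8 h, and 10.17 and 10.18 against 10.06 and 10.23 at 16 h. The groups overlapped at 16 h. Its 1.36 (SE 0.07) at 8 h became -0.03 (SE 0.07), a change of -1.40 (SE 0.10, adjusted p = 1.3e-14). Sel1l, a subunit of the same degradation complex, went from 8.59 and 8.51 against 9.52 and 9.59 at 8 h to 9.05 and 9.11 against 8.86 and 8.84 at 16 h. It rose by 1.00 (SE 0.05) and then fell by 0.23 (SE 0.05). Its other 4 probe sets differed at 16 h by -0.07 to 0.04, and over the mean of its probe sets the change between hours was -0.59 against -1.23. The difference was lower at 16 h than at 8 h for 15 of the 57 genes and higher for none. Beside Sel1l, the genes that fell at 16 h were the stress sensors Atf6 (-0.27) and Ern1 (-0.25) and the oxidase Ero1a (-0.18), and these 4 falls became 2 with the mean of probe sets and without HGF replicate 1, HGF replicate 2 or combination replicate 2 of 16 h.

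Promoters of Creld2 and of Hspa5, the gene for BiP, are shown because both hold the ER stress element, a paired letter pattern bound by ATF6 together with NF-Y. The pattern searched on both strands was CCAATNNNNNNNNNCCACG, and capitals mark it in the 250 bases before the start of Creld2 (chr15:88819396-88819645, plus strand) and of Hspa5 (chr2:34771840-34772089, plus strand), again RefSeq sequence of build GRCm38.p6. In Creld2 it lies on the other strand, so its capitals read as the reverse complement.
Creld2: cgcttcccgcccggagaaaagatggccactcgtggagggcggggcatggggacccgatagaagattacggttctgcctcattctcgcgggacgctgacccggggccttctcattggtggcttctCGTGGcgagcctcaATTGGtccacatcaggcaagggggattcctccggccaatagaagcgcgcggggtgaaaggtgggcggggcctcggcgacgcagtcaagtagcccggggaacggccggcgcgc
Hspa5: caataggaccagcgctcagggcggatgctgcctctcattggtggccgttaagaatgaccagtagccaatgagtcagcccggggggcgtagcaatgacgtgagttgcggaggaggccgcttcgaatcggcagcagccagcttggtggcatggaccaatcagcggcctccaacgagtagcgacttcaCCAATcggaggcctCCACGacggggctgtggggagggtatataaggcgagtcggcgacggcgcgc
In all, 19 of the 11639 genes with a promoter (0.163%) held this element; 10 of them rose at 8 h, none fell and 9 did not pass. Of the 10, 9 belong to the ER list and Acnat2, an acyltransferase gene, does not. Beside Creld2, the largest rises among them at 8 h were in Ero1b (1.17, SE 0.08), Pdia6 (0.99, SE 0.07) and Syvn1 (0.98, SE 0.06), whose elements are written here in the direction of the pattern.
Ero1b: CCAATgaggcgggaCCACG
Pdia6: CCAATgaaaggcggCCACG
Syvn1: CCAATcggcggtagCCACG
Hspa5 read 13.40 and 13.40 with HGF and 13.98 and 14.01 with both at 8 h, a rise of 0.59 (SE 0.04), and 13.48 and 13.47 against 13.60 and 13.60 at 16 h, a rise of 0.12 (SE 0.04). Creld2 and its divergent neighbour Alg12 share 1 element (chr15:88819520-88819538), and Alg12 differed by 0.15 at 8 h (SE 0.11), which did not pass. These letters were thus found in genes that rose and in genes that did not pass. At 16 h 10 of the 19 rose and none fell.

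**Figure D2:**
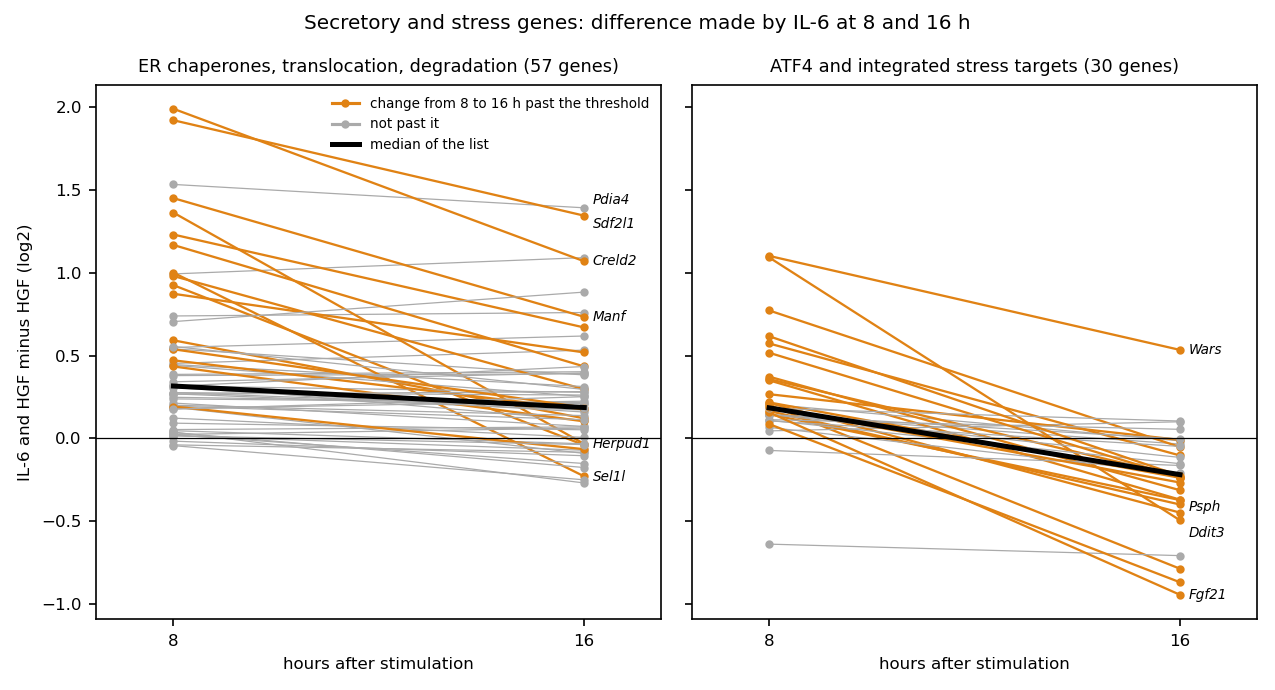
Difference between the combination and HGF (log2, y axis) at 8 and 16 h (x axis) for each tested gene of the ER list (57 genes, left) and of the ATF4 list (30 genes, right); the black line joins the list medians and orange marks genes whose change between the hours passed. The ER median goes from 0.32 to 0.19 and the ATF4 median from 0.19 to -0.22.

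Targets of ATF4, the factor of the integrated stress response that is set off when translation initiation is curbed, rose with IL-6 at 8 h and fell at 16 h in large part. Of 30 tested 17 rose and 1 fell at 8 h (median difference 0.19), and 1 rose and 16 fell at 16 h (median -0.22). The difference was lower at 16 h for 18 of the 30 and higher for none. The 8 h count of rises was 9 without HGF replicate 1 of 8 h, and the 16 h count of falls was 6 without combination replicate 2 of 16 h. Ddit3, the stress factor CHOP, read 7.43 and 8.01 with HGF and 8.77 and 8.86 with both at 8 h, and 11.24 and 11.11 against 10.77 and 10.59 at 16 h. Both groups stood higher at 16 h, HGF the more so. The difference was 1.09 (SE 0.14, adjusted p = 1.84e-08) at 8 h and -0.49 (SE 0.14, adjusted p = 0.00691) at 16 h, a change of -1.59 (SE 0.19, adjusted p = 1.07e-07). The fall at 16 h was -0.43 without HGF replicate 1, -0.40 without combination replicate 2 and -0.28 over the mean of its probe sets, none of them past the threshold, while the change between the hours passed in all settings tried. Psph, an enzyme of serine synthesis, read 10.94 and 10.89 against 10.48 and 10.45 at 16 h, a fall of -0.45 (SE 0.06), after a difference of 0.21 (SE 0.06) at 8 h that was 0.16 without HGF replicate 1 and 0.17 without combination replicate 1 of 8 h, neither past the threshold. Fgf21, a hormone of fasting and stress, read 4.97 and 5.42 against 5.52 and 5.19 at 8 h and 6.52 and 6.54 against 5.66 and 5.51 at 16 h. The 8 h groups overlapped (0.16, SE 0.13) and the 16 h difference was -0.94 (SE 0.13). Wars, a tRNA synthetase that interferon also induces, was the gene that rose at both hours, by 1.10 (SE 0.07) and 0.54 (SE 0.07), and Slc7a11, the cystine transporter, fell at 8 h (-0.64). Trib3, a pseudokinase induced by ATF4, rose by 0.77 (SE 0.11) at 8 h and differed by -0.05 (SE 0.11) at 16 h, a change of -0.82 (SE 0.15). HGF against unstimulated cells, a comparison that shares the HGF arrays, raised 28 of the 30 at 16 h (38.4% of all genes passed there, 20.0% as rises), and IL-6 against unstimulated cells, with no shared array, raised 17 and lowered 1 (25.6% of all genes passed there, 11.7% as rises).

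**Figure D3:**
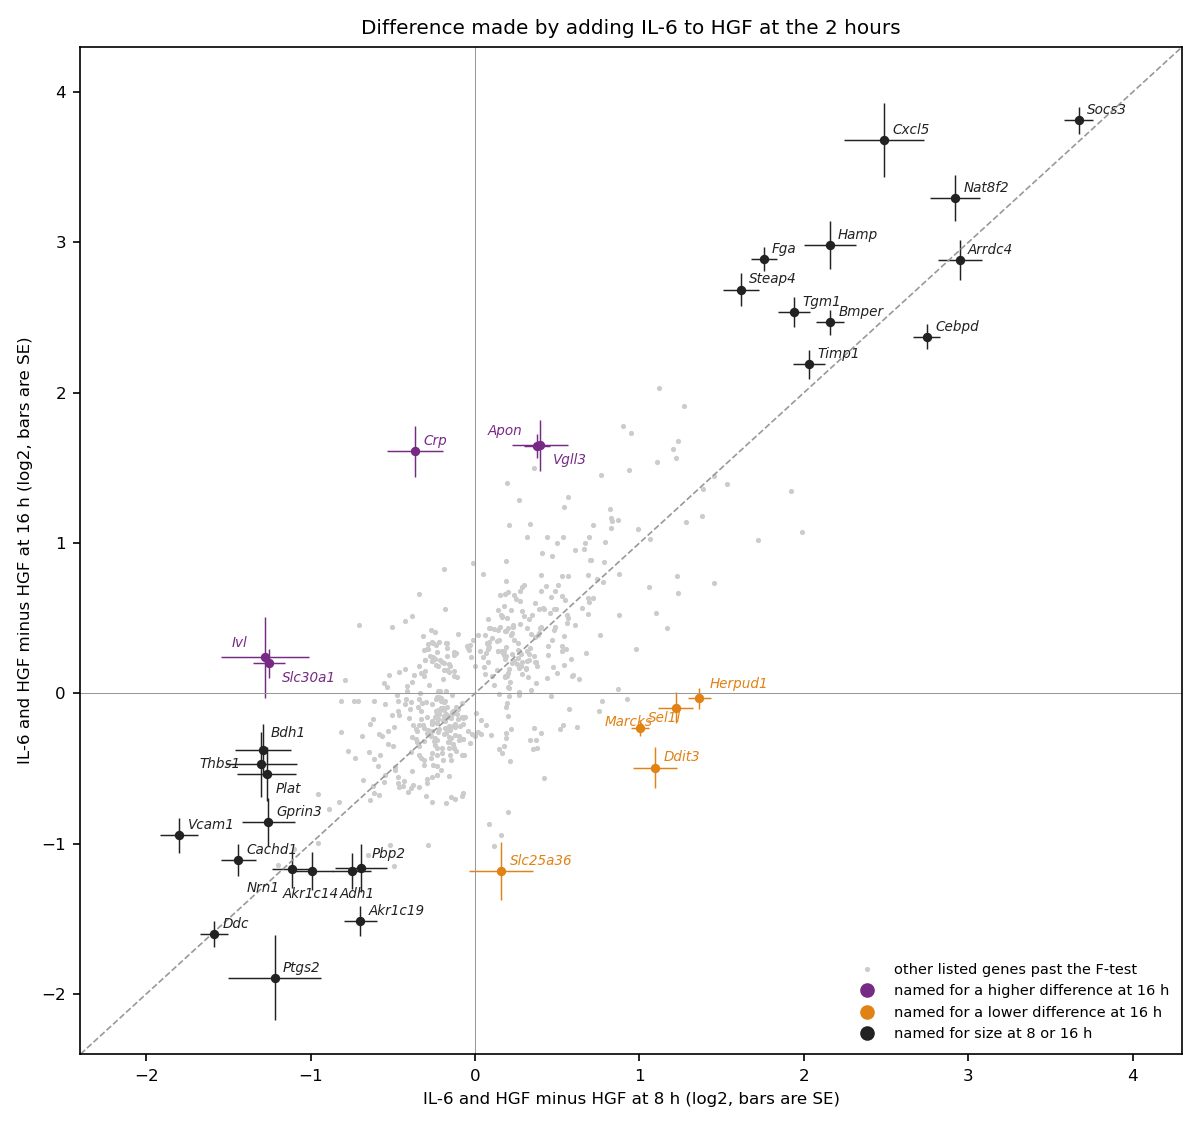
Difference between the combination and HGF at 8 h (x axis) and at 16 h (y axis), both log2, with standard errors as bars for the named genes. Grey points are other genes, such as those of the lists, that passed an F-test over both hours together. The dashed line marks equal differences. Socs3, Arrdc4 and Timp1 lie near the line, Crp, Apon, Vgll3, Ivl and Slc30a1 lie above it, and Ddit3, Herpud1, Sel1l, Marcks and Slc25a36 lie below it.

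Changes between the hours reached outside these lists. Of the 438 genes whose difference was higher at 16 h, 256 rose at 16 h and 192 fell at 8 h, and of the 158 with a lower difference, 91 rose at 8 h and 78 fell at 16 h. Slc30a1, the exporter of zinc, read 8.13 and 8.38 with HGF and 7.03 and 6.97 with both at 8 h, and 9.48 and 9.52 against 9.66 and 9.73 at 16 h. It fell by 1.25 (SE 0.10) at 8 h, differed by 0.20 (SE 0.10) at 16 h, and changed by 1.45 (SE 0.14, adjusted p = 2.78e-10). Marcks, a membrane substrate of protein kinase C, read 7.57 and 7.56 against 8.80 and 8.77 at 8 h and 8.50 and 8.51 against 8.56 and 8.26 at 16 h. Its 1.22 (SE 0.11) became -0.09 (SE 0.11) with overlapping groups. Vgll3, a cofactor of TEAD factors, read 3.66 and 3.74 with HGF and 5.33 and 5.36 with both at 16 h, a rise of 1.65 (SE 0.17) after 0.40 (SE 0.17) at 8 h, which did not pass. Its HGF arrays lay below the array medians, so the size is measured against a level near background; its other 2 probe sets, also dim, gave 1.65 and 1.45 at 16 h. Slc25a36, a mitochondrial carrier of pyrimidine nucleotides, read 5.70 and 5.68 against 4.49 and 4.53 at 16 h, a fall of -1.18 (SE 0.20). Nfil3, a repressor in the clock, rose by 0.87 (SE 0.06) at 8 h and differed by 0.03 (SE 0.06) at 16 h, while Bhlhe40, another clock repressor, rose by 0.40 (SE 0.05) and 0.79 (SE 0.05). Among 18 clock genes 4 rose and none fell at 8 h, Arntl (0.46) and Rora (0.53) with these repressors, and at 16 h 3 rose and 3 fell. In all, 47 genes passed in opposite directions at the hours, and the nuclear factor of liver identity Hnf4a was one, at -0.26 (SE 0.09) and 0.33 (SE 0.09). Its 8 h call was lost without any 1 of the 4 arrays (-0.30 to -0.21) and its 16 h call without HGF replicate 1 (0.31) and combination replicate 2 (0.16) and over the mean of its probe sets (0.18), while the change of 0.59 (SE 0.12) passed.

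NF-kB is the main transcription factor of inflammation, and its list holds its subunits, inhibitors and adhesion molecules it controls. Of 26 NF-kB factors and feedback genes 8 rose and 3 fell at 8 h, with a median of 0.04, and 15 rose and 1 fell at 16 h, with a median of 0.28. The difference was higher at 16 h for 6 of them and lower for none, a count of 2 without combination replicate 1 of 8 h. Cxcl5, which attracts neutrophils, read 5.42 and 5.51 with HGF and 7.97 and 7.94 with both at 8 h, and 4.57 and 4.60 against 8.28 and 8.25 at 16 h. Its rise was 2.49 (SE 0.24) and 3.68 (SE 0.24), a change of 1.19 (SE 0.34, adjusted p = 0.0328). Cxcl1, its relative, differed by 0.19 (SE 0.06) at 8 h, where it did not pass without any 1 of the 4 arrays (0.17 to 0.20), and rose by 0.88 (SE 0.06) at 16 h, a change of 0.70 (SE 0.09). Icam1, an adhesion molecule for leukocytes, read 9.35 and 9.39 against 10.03 and 10.16 at 8 h and 9.76 and 9.85 against 10.97 and 10.88 at 16 h. It rose by 0.72 (SE 0.06) and 1.12 (SE 0.06). Vcam1, the other adhesion molecule of the list, went the other way, at 8.55 and 8.55 with HGF and 6.70 and 6.80 with both at 8 h, and 9.14 and 9.15 against 8.21 and 8.19 at 16 h. The falls were of -1.80 (SE 0.12, adjusted p = 5.54e-17) and -0.95 (SE 0.12). Of its other 2 probe sets, 1 differed by -1.42 and -1.02, and 1 by -0.37 and -0.81. Over the mean of its probe sets Vcam1 fell by 1.2 at 8 h. Nfkbiz, a nuclear cofactor of NF-kB, rose by 0.83 (SE 0.08) and 1.16 (SE 0.08), and Il33, an alarmin, by 1.45 (SE 0.15) and 1.44 (SE 0.15). Csf1, the growth factor of macrophages, fell by 0.58 (SE 0.08) and by 0.67 (SE 0.08). The chemokine list also holds chemokine receptors and other cytokines, Il33 and Csf1 among them. Of its 32 tested genes 5 rose and 5 fell at 8 h, and 7 rose and 3 fell at 16 h. The difference was higher at 16 h for 5, which were Cxcl1, Cxcl2, Cxcl5, Cxcl10 and Ccl9, and lower for none. At 8 h 3 rose without combination replicate 2, and 2 fell without HGF replicate 2 or combination replicate 1. Without combination replicate 2 of 16 h 4 rose at 16 h. The count of 5 between the hours was 2 without HGF replicate 2 of 8 h, and 3 without HGF replicate 2 of 16 h, combination replicate 1 of 8 h, or combination replicate 1 or 2 of 16 h.

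Cxcl10, the chemokine named in the title, was lower with both factors at 8 h and higher at 16 h. It read 7.53 and 7.53 with HGF and 6.95 and 7.10 with both at 8 h, and 6.67 and 6.58 against 7.10 and 7.04 at 16 h. On the IL-6 arrays it read 6.94 and 6.67 at 8 h and 6.61 and 6.87 at 16 h, and on unstimulated arrays 7.70 and 7.13, then 7.67 and 7.61. The difference was -0.51 (SE 0.15, adjusted p = 0.0153) at 8 h and 0.44 (SE 0.15, adjusted p = 0.0373) at 16 h, with no overlap, and the change of 0.95 (SE 0.21, adjusted p = 0.00346) passed. Each single call is weak: at 8 h the value was -0.51, -0.50 and -0.43 without HGF replicate 1, HGF replicate 2 and combination replicate 1, and at 16 h it ran from 0.40 to 0.48 without each of the 4 arrays in turn, none of which passed. With HGF present, IL-6 made a difference at 16 h that was 1.34 (SE 0.21, adjusted p = 1.22e-05) above the -0.90 it made without HGF. Of the 38 interferon-stimulated and antigen presentation genes 8 rose and 6 fell at 8 h, and 13 rose and none fell at 16 h. The 8 h rises numbered 5 without HGF replicate 1 or combination replicate 1, and the 8 h falls 3 without HGF replicate 2. Iigp1, an interferon-induced GTPase, read 10.95 and 11.15 against 12.03 and 11.97 at 8 h and 9.85 and 9.84 against 11.46 and 11.69 at 16 h. It rose by 0.95 (SE 0.09) and 1.73 (SE 0.09). Irf1, a factor of interferon signalling, rose by 0.46 (SE 0.06) and 0.64 (SE 0.06), and Psmb9 and Psmb10, subunits of the immunoproteasome, rose by 0.60 (SE 0.09) and 0.50 (SE 0.07) at 16 h.

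Among 31 immediate early and AP-1 genes 9 rose and 2 fell at 8 h, and 10 rose and 2 fell at 16 h. Junb read 7.76 and 7.81 with HGF and 8.40 and 8.56 with both at 8 h, and 7.81 and 8.00 against 8.95 and 8.95 at 16 h. It rose by 0.69 (SE 0.07) and 1.04 (SE 0.07), Fosl2, another AP-1 factor, by 0.66 and 0.96 (SE 0.08 each), and Ier3, a survival gene, by 0.30 and 0.72 (SE 0.05 each). Ccn1, a matrix signal and target of YAP, read 11.46 and 11.46 against 10.69 and 10.76 at 8 h, a fall of -0.74 (SE 0.05), and differed by -0.05 (SE 0.05) at 16 h, a change of 0.68 (SE 0.07). Fosl1, an AP-1 factor, fell at both hours (-0.83 and -0.72). Of 31 genes of MAP kinase feedback and EGF-family signalling 2 rose and 11 fell at 8 h, and 7 rose and 5 fell at 16 h. Those that rose at 8 h were Erbb3, a receptor of neuregulins, at 9.13 and 9.20 against 9.99 and 10.09 (0.88, SE 0.07), and the inhibitor Spred3 (1.20, SE 0.19). Both rose at 16 h too, by 0.79 (SE 0.07) and 1.63 (SE 0.19). Lrig1, which removes receptor tyrosine kinases from the membrane, read 9.51 and 9.55 against 8.82 and 8.85 at 8 h. It fell by 0.69 (SE 0.06) and by 0.29 (SE 0.06).

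Of 52 genes of the G1/S step and DNA replication 1 rose and 12 fell at 8 h, and 2 rose and 6 fell at 16 h. The 8 h falls are not stable: 3 passed after quantile normalization, 6 with the mean of probe sets, and 4, 2, 3 and 7 without HGF replicate 1, HGF replicate 2, combination replicate 1 and combination replicate 2. Ccnd1, the G1 cyclin that HGF is known to induce, read 10.54 and 10.61 with HGF and 10.02 and 10.04 with both at 16 h, a fall of -0.54 (SE 0.11, adjusted p = 0.000232), and differed by -0.23 (SE 0.11) at 8 h, which did not pass. Ccnd2, its relative, fell by 0.72 (SE 0.12) at 16 h. Cdkn2b, an inhibitor of the same step, fell by 0.73 (SE 0.11) at 8 h. Among 39 G2 and mitosis genes 3 fell at 8 h (Kif23, Cks2 and Pttg1) and 1 at 16 h (Smc4), and none rose. These falls are 7.692% and 2.564% of the list, below the 9.05% and 7.15% of all genes that fell. The calls were lost for Kif23 without HGF replicate 2 (-0.44) or combination replicate 2 (-0.46) or over the mean of its probe sets (-0.17), for Pttg1 without combination replicate 2 (-0.18), and for Smc4 without HGF replicate 2 (-0.25) or combination replicate 2 (-0.28) or over that mean (-0.19). Of 39 genes of ribosome biogenesis 2 rose and 6 fell at 8 h and 6 fell at 16 h; the 8 h falls numbered 3, 1 and 2 without HGF replicate 1, HGF replicate 2 and combination replicate 1, and the 16 h falls 1 without HGF replicate 1 and 3 without each of the other arrays. Among 38 genes of p53, growth arrest and apoptosis 9 rose and 5 fell at 8 h, and 10 rose and 4 fell at 16 h. Gadd45g, a growth arrest gene, read 6.21 and 6.16 against 7.26 and 7.32 at 8 h and 5.91 and 5.43 against 7.09 and 7.33 at 16 h. It rose by 1.11 (SE 0.13) and 1.54 (SE 0.13), and Casp4, a caspase of the inflammatory kind, by 0.87 and 1.15 (SE 0.11 each).

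**Figure D4:**
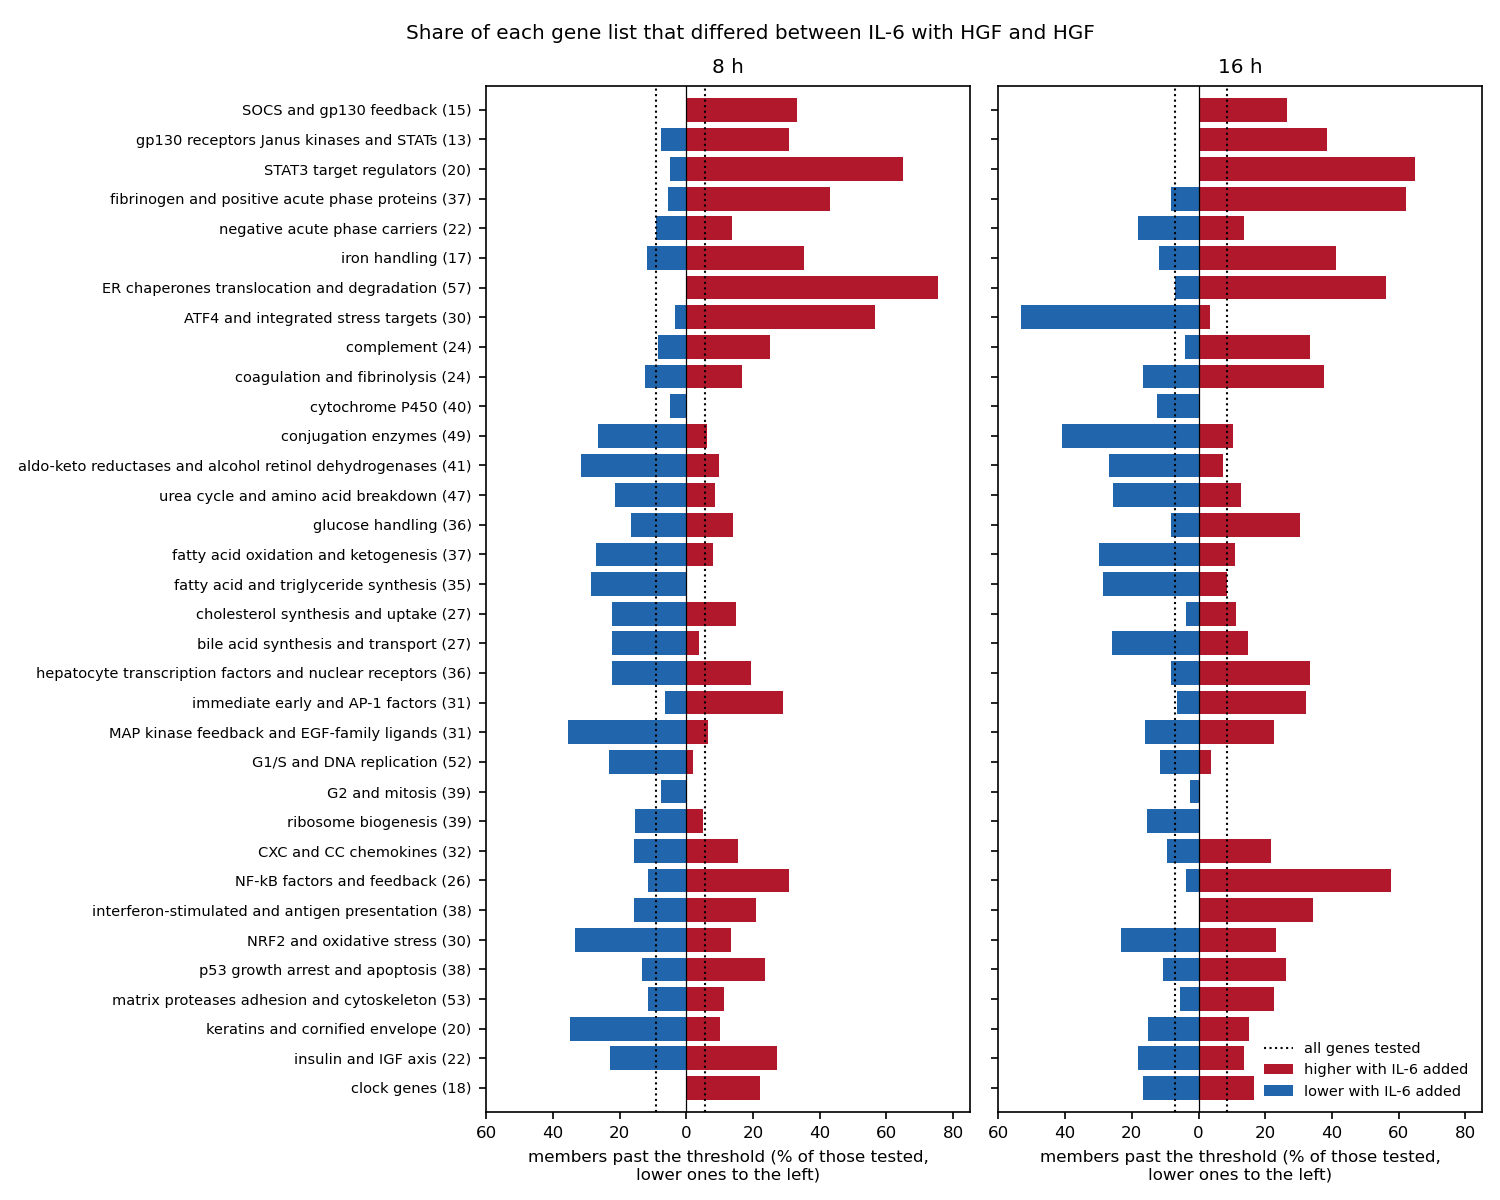
Share of the tested members of each of 34 gene lists (rows, number tested in parentheses) that rose (red, right) or fell (blue, left) at 8 h and at 16 h; the x axis is a percent and dotted lines give the share over all genes tested. The ER list stands out with 43 of 57 rises at 8 h, and the ATF4 list goes from 17 rises of 30 at 8 h to 16 falls at 16 h.

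Conjugation enzymes join drugs, hormones and bile acids to soluble groups for export. The list of that name also holds flavin monooxygenases, epoxide hydrolases and carboxylesterases, which are enzymes of other kinds, and its counts cover all of them. Of 49 tested 3 rose and 13 fell at 8 h, and 5 rose and 20 fell at 16 h, with medians of -0.15 and -0.26; the falls numbered 7 without HGF replicate 2 of 8 h and 13 without combination replicate 2 of 16 h. Gsta4, a glutathione transferase, read 10.79 and 10.88 with HGF and 10.39 and 10.24 with both at 8 h, and 10.63 and 10.63 against 9.52 and 9.72 at 16 h. Its falls were of -0.52 and -1.01 (SE 0.09 each). Ugt2b34, a glucuronosyltransferase, fell by 0.47 (SE 0.06) and by 0.60 (SE 0.06). Nat8f2, an acetyltransferase-like gene, went the other way by a wide margin: 7.45 and 7.66 against 10.39 and 10.56 at 8 h, and 8.00 and 7.77 against 11.22 and 11.14 at 16 h. The rises were of 2.92 (SE 0.15) and 3.30 (SE 0.15, adjusted p = 3.07e-22). Nnmt, the methyltransferase of nicotinamide, rose by 0.53 (SE 0.05) and 0.28 (SE 0.05).

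Of 41 aldo-keto reductases and alcohol and retinol dehydrogenases 4 rose and 13 fell at 8 h, and 3 rose and 11 fell at 16 h; the 8 h falls numbered 8 without HGF replicate 1 of 8 h. Akr1c19, a reductase, read 9.24 and 9.42 with HGF and 8.57 and 8.70 with both at 8 h, and 8.01 and 8.02 against 6.46 and 6.53 at 16 h. The falls were of -0.70 (SE 0.10) and -1.51 (SE 0.10). Adh1, the main alcohol dehydrogenase, read 10.98 and 11.29 against 10.49 and 10.29 at 8 h, and 10.72 and 10.51 against 9.29 and 9.59 at 16 h, falls of -0.75 and -1.18 (SE 0.12 each). Rdh10, which makes retinal, rose with no overlap at 8.35 and 8.49 against 9.79 and 9.82 at 8 h (1.39, SE 0.08) and by 1.36 (SE 0.08) at 16 h. Aldh1l1, a dehydrogenase of folate metabolism, rose by 0.54 (SE 0.08) and 1.24 (SE 0.08). Of 40 cytochrome P450 genes, the oxidases of drugs and sterols, 2 fell at 8 h (Cyp7b1 and Cyp3a25), 5 fell at 16 h and none rose. These falls are 5.0% and 12.5% of the list, against 9.05% and 7.15% of all genes. The 16 h count was 3 without HGF replicate 1 of 16 h, and 11 in a fit on the compared arrays alone. Cyp3a13 fell by 0.39 (SE 0.05) at 16 h and Cyp7b1, which acts on oxysterols, by 0.41 (SE 0.07) at 8 h.

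Of 47 genes of the urea cycle and amino acid breakdown 4 rose and 10 fell at 8 h, and 6 rose and 12 fell at 16 h. The 8 h falls numbered 6 without HGF replicate 2 or combination replicate 1, and the 16 h rises 3 without combination replicate 2. The 16 h falls numbered 6, 5 and 6 without HGF replicate 1, HGF replicate 2 and combination replicate 1 of 16 h. Ddc, which makes dopamine and serotonin from their amino acid precursors, read 8.92 and 8.96 with HGF and 7.42 and 7.29 with both at 8 h, and 8.05 and 8.02 against 6.28 and 6.58 at 16 h. Its falls were of -1.59 (SE 0.09) and -1.60 (SE 0.09), and its other probe set, near background at a mean of 3.86, differed by 0.10 and -0.01. Nags, which makes the activator of the urea cycle, rose by 0.65 (SE 0.08) and 0.57 (SE 0.08), and Glul, glutamine synthetase, by 0.68 (SE 0.08) at 8 h. Among 37 genes of fatty acid oxidation and ketogenesis 3 rose and 10 fell at 8 h, and 4 rose and 11 fell at 16 h; the 16 h falls numbered 7, 5 and 4 without HGF replicate 1, HGF replicate 2 and combination replicate 1 of 16 h. Bdh1, which makes a ketone body, read 7.57 and 7.56 against 6.24 and 6.30 at 8 h, a fall of -1.29 (SE 0.17), and 6.19 and 6.28 against 5.62 and 6.09 at 16 h, a difference of -0.38 (SE 0.17) that did not pass. Angptl4, an inhibitor of lipoprotein lipase, rose by 0.56 (SE 0.07) and 0.47 (SE 0.07).

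In glucose handling 5 of 36 genes rose and 6 fell at 8 h, and 11 rose and 3 fell at 16 h. The rises at 16 h numbered 6 without HGF replicate 2 and 7 without combination replicate 2, and the falls at 8 h 2, 3 and 3 without HGF replicate 2, combination replicate 1 and combination replicate 2. Arrdc4, an arrestin-like gene that responds to glucose, read 5.31 and 5.72 with HGF and 8.37 and 8.55 with both at 8 h, and 6.37 and 6.37 against 9.33 and 9.18 at 16 h. It rose by 2.95 (SE 0.13) and 2.88 (SE 0.13). Slc2a2, the glucose transporter of hepatocytes, read 9.41 and 9.42 against 8.43 and 8.49 at 8 h, and 8.13 and 8.09 against 7.02 and 7.21 at 16 h. Its falls were of -0.96 and -0.99 (SE 0.09 each). Fatty acid and triglyceride synthesis had 10 falls of 35 at each hour, among them Pparg, a nuclear receptor of fat storage (-0.62 at each hour, SE 0.07), and 3 rises at 16 h; without combination replicate 1 of 16 h 5 fell there. In cholesterol synthesis and uptake 4 of 27 rose and 6 fell at 8 h, and 3 rose and 1 fell at 16 h, the 8 h falls being 2, 3 and 3 without HGF replicate 1, HGF replicate 2 and combination replicate 2. In that list Abca1, the cholesterol exporter, rose by 0.47 and 0.91 (SE 0.07 each). Of 27 bile acid genes 1 rose and 6 fell at 8 h, and 4 rose and 7 fell at 16 h, with falls in Amacr, a racemase of the pathway (-0.65 and -1.07, SE 0.13 each), and in the exporter Abcc2 (-0.61 and -0.66, SE 0.09 each). Hepatocyte transcription factors and nuclear receptors rose in 7 of 36 cases and fell in 8 at 8 h, and rose in 12 and fell in 3 at 16 h. Their 8 h rises numbered 4 without HGF replicate 1, and their 8 h falls 5, 4 and 4 without HGF replicate 1, HGF replicate 2 and combination replicate 1.

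Of 30 genes of NRF2 and oxidative stress 4 rose and 10 fell at 8 h, and 7 rose and 7 fell at 16 h. The 8 h falls numbered 6, 6 and 5 without HGF replicate 1, HGF replicate 2 and combination replicate 1. The 16 h rises numbered 4 without HGF replicate 2 or combination replicate 1, and the 16 h falls 4 without combination replicate 2. Sod2, the mitochondrial superoxide dismutase, read 11.68 and 11.69 with HGF and 12.11 and 12.08 with both at 8 h, and 11.58 and 11.57 against 12.49 and 12.53 at 16 h. It rose by 0.41 and 0.93 (SE 0.04 each), while Srxn1, which repairs peroxiredoxins, fell by 0.81 (SE 0.07) at 8 h. Among 53 matrix, protease, adhesion and cytoskeleton genes 6 rose and 6 fell at 8 h, and 12 rose and 3 fell at 16 h, with 3 rises at 8 h without HGF replicate 2. Of the 20 keratin and cornified envelope genes 2 rose and 7 fell at 8 h, and 3 rose and 3 fell at 16 h; 4 fell at 8 h without any 1 of the 4 arrays. Tgm1, the transglutaminase of the cornified envelope, read 6.83 and 7.04 against 8.87 and 8.89 at 8 h and 5.85 and 5.94 against 8.35 and 8.50 at 16 h, rises of 1.94 and 2.54 (SE 0.10 each). Ivl, its substrate involucrin, read 8.78 and 8.93 against 7.74 and 7.41 at 8 h, a fall of -1.28 (SE 0.27), and 6.62 and 6.73 against 6.49 and 7.34 at 16 h with overlap. Of 22 genes of the insulin and IGF axis 6 rose and 5 fell at 8 h, and 3 rose and 4 fell at 16 h, with falls in the receptor Igf2r at both (-0.27 and -0.43, SE 0.06 each) and in the growth hormone receptor Ghr at 16 h (-0.41, SE 0.06). Of these, 3 rose at 8 h without HGF replicate 1, and 3 fell without HGF replicate 1 or combination replicate 1. Outside the lists, Bmper, which binds BMP ligands, rose from 7.0 and 7.04 to 9.08 and 9.29 at 8 h and from 7.22 and 7.36 to 9.73 and 9.78 at 16 h (2.16 and 2.47, SE 0.09 each). Cachd1 fell by 1.44 (SE 0.11) and by 1.11 (SE 0.11), Nrn1, a neuronal surface protein gene, by 1.11 and 1.17 (SE 0.12 each), and Gprin3 by 1.26 (SE 0.16) and 0.86 (SE 0.16). Thbs1, the matrix protein thrombospondin, read 8.45 and 8.30 against 7.09 and 7.07 at 8 h, a fall of -1.30 (SE 0.22). Ptgs2, the inducible cyclooxygenase, was near background on most arrays, at 4.76 and 5.14 with HGF and 3.09 and 3.02 with both at 16 h (-1.89, SE 0.28), and its other probe set showed 0.00 there.

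Whether IL-6 acted alike with and without HGF was tested as the difference of the 2 differences, (combination minus HGF) minus (IL-6 minus unstimulated). At 8 h 360 genes passed this test (2.48%), 175 higher (1.21%) and 185 lower (1.27%), and at 16 h 1445 (9.96%), 934 higher (6.44%) and 511 lower (3.52%). The 8 h count was 215 in a fit on the compared arrays alone, and 123, 134, 155, 197 and 167 without HGF replicate 1, combination replicate 1, unstimulated replicate 1, unstimulated replicate 2 and IL-6 replicate 2 of 8 h. The unstimulated arrays, which read higher on the bioB control than the IL-6, HGF and combination arrays, enter this test at both hours, and the part of that gap in these counts was not tested. The 16 h count was 922 without HGF replicate 2 and 932 without combination replicate 2 of 16 h. Of the genes that passed with HGF, 57.74% at 8 h and 59.74% at 16 h passed without HGF as well (1234 and 1368 genes, where 17.6% and 25.6% of all genes passed without HGF, or 48.26% and 36.8% of the genes that passed without HGF), and 1214 and 1270 of them had the same direction.

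**Figure D5:**
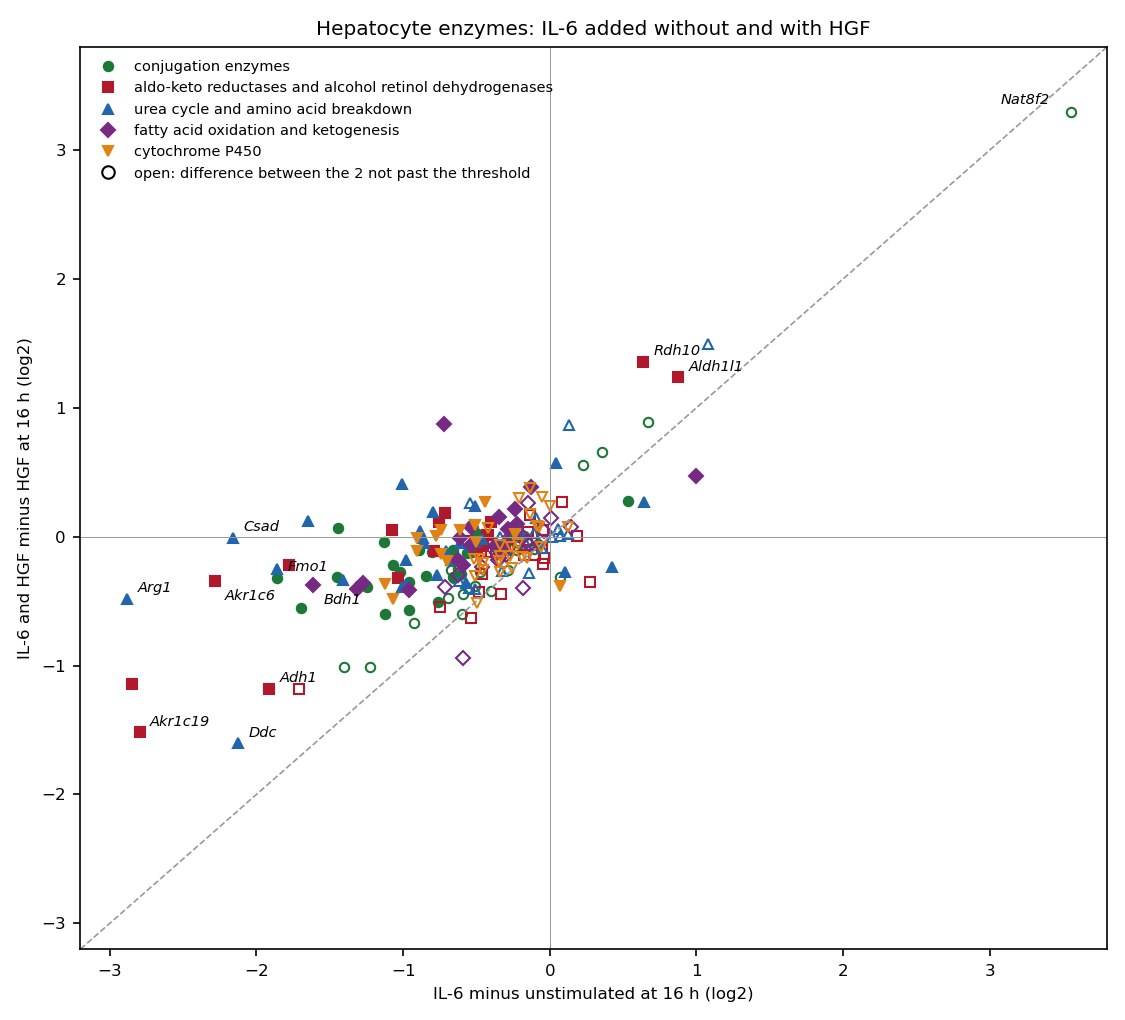
Difference made by IL-6 at 16 h without HGF (x axis) and with HGF (y axis), both log2, for the tested members of 5 enzyme lists; filled symbols passed the test of the difference between the axes and the dashed line marks equal differences. Most filled points lie left of 0 and above the line, Csad at -2.16 without HGF and -0.01 with it and Arg1 at -2.88 and -0.48.

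At 16 h the fall that IL-6 made in metabolic enzymes was in many cases smaller with HGF than without it. IL-6 without HGF lowered 38 of 49 genes of the conjugation list, 28 of 41 reductases and dehydrogenases, 31 of 47 amino acid genes, 29 of 37 fatty acid oxidation genes and 27 of 40 cytochrome P450 genes (13.9% of all genes). With HGF it lowered 20, 11, 12, 11 and 5 of them. The difference of the differences was higher for 23, 18, 22, 17 and 13 and lower for 1, 0, 3, 1 and 1 in the same order; the P450 count was 7 without HGF replicate 2 and 5 without IL-6 replicate 1 of 16 h. HGF against unstimulated cells, which shares arrays with both sides of this test, lowered 38, 29, 36, 29 and 25 of them (18.5% of all genes). Csad, an enzyme of taurine synthesis, read 9.06 and 8.96 on unstimulated arrays, 6.95 and 6.75 with IL-6, 6.64 and 6.41 with HGF and 6.53 and 6.51 with both at 16 h. The IL-6, HGF and combination arrays all lay well below the unstimulated ones, and the difference of differences was 2.15 (SE 0.14, adjusted p = 7.95e-15). Arg1, the last enzyme of the urea cycle, read 8.58 and 8.48 unstimulated, 5.18 and 6.12 with IL-6, 5.79 and 5.56 with HGF and 5.02 and 5.37 with both, and its value was 2.40 (SE 0.29). Akr1c6, a steroid dehydrogenase (1.94, SE 0.20), Mtarc1, a mitochondrial reductase (1.85, SE 0.14), and Baat, which conjugates bile acids (1.84, SE 0.22), had the next largest. Slc2a2 (1.43, SE 0.12), Akr1c19 (1.28, SE 0.14) and Serpina7 (1.33, SE 0.13) passed too.

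Of the 30 ATF4 targets 22 had a lower difference with HGF at 16 h and none a higher one, of 39 ribosome biogenesis genes 17 and none, and of 31 immediate early genes 9 and none. Of 31 genes of MAP kinase feedback and EGF-family signalling 9 were lower and 3 higher. The 9 became 5 over the mean of probe sets, with the compared arrays alone, or without a variance trend. This count also shrank when single arrays were left out, and most of it was lost without HGF replicate 2 of 16 h. Over all genes 3.52% were lower. Other lists of growth and stress genes were mixed. Of 57 ER genes 5 were lower and 2 higher, and of 38 p53 and apoptosis genes 4 lower and 1 higher. Over all genes 6.44% were higher. In the G1/S list 3 of 52 genes (5.769%) were higher, and 1 of 39 (2.564%) in G2 and mitosis, both below that share, and none were lower. Of 30 NRF2 genes 7 were higher and 1 lower. Without IL-6 replicate 1 of 16 h the immediate early count was 5 and the ribosome count 11. Klf4, a Krüppel-like factor, read 7.66 and 7.60 unstimulated, 9.34 and 8.64 with IL-6, 9.94 and 10.02 with HGF and 10.24 and 9.91 with both at 16 h. Its difference of differences was -1.26 (SE 0.21, adjusted p = 2.56e-05). Acute phase genes passed in the other direction in 11 of 37 cases against 2, a count of 6 without IL-6 replicate 1 of 16 h, with Steap4 at 1.24 (SE 0.16), Crp at 1.11 (SE 0.24), Apon at 1.11 (SE 0.11) and Fga at 0.80 (SE 0.11). For Steap4 the arrays read 9.67 and 9.47 unstimulated, 10.86 and 11.17 with IL-6, 7.99 and 8.07 with HGF and 10.60 and 10.83 with both at 16 h. Unstimulated and HGF arrays were thus further apart than IL-6 and combination arrays. Socs3 (-0.24 and -0.09), Cebpd (-0.23 and -0.18) and Bcl3 (0.24 and 0.08) did not pass at 8 or 16 h.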

How the data were processed

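Per the labels' protocols, biotin-labelled cRNA made by the One-Cycle assay was hybridised to Affymetrix whole-genome mouse arrays. In the table that the authors deposited, each of 45101 probe sets has a log2 intensity for each of the 60 arrays. From the values, the authors had already scaled the arrays to a common level. Their summarisation, background correction and scaling are not given in the sources used here. No value was transformed further. By the platform annotation 34958 probe sets had 1 gene symbol, 932 several and 9211 none listed; only the first kind was named, giving 18194 genes. A gene was read from its probe set with the highest mean. Genes above the 40th percentile of an array on at least 2 arrays were tested, which left 14513. With limma 3.58.1 in R 4.3.3, 1 mean per group was fitted over all 60 arrays (29 groups, 31 residual degrees of freedom) with a trended eBayes prior, and p-values were adjusted by Benjamini-Hochberg over all genes tested, with a threshold of 0.05. All groups entered the fit so that they share 1 estimate of the spread.

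Genes were named by rule. At each hour the 8 largest rises and 8 largest falls were taken among genes past the threshold. Both combination arrays of such a gene had to lie beyond both HGF arrays, so its lack of overlap was fixed by the rule. For the change between hours and the comparison with IL-6 alone, the 5 largest past the threshold in each direction were taken. The 4 with the smallest adjusted p over both hours on each of 34 lists were named too, and Il6ra, Il6st, Met and Cxcl10. The lists hold 1222 genes, of which 1092 were tested, and 6 further lists hold cell type markers. The comparison, the lists and the rules were chosen with earlier results of these data known, so they are no independent evidence. Promoters are RefSeq sequences, 250 bases before to 50 after a gene's start.

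The fit was tested on simulated data with 50 genes at each fold. For the 8 h comparison the genes called were 15 for a 1.2-fold change, 27 for 1.3-fold, 42 for 1.5-fold and 49 for 2-fold, besides 6 of 14313 unchanged genes. For the change between hours it called 4, 21, 32 and 50, and 5 unchanged genes. Each alternative setting changed 1 choice: the scaling, the filter, the probe set rule, the arrays fitted, the variance model, the replicate block or 1 array left out. Leaving out the IL-6 and unstimulated arrays, and recounting the lists under each setting, were added after seeing the data.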

Additional observations from a re-analysis of the deposited data

Results flagged for a closer look

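These results are given because the difference between hours, or between IL-6 with and without HGF, was itself tested with limma and passed after Benjamini-Hochberg adjustment. Over all genes, 596 changed their difference from 8 to 16 h. The largest increases were those of Crp (1.97), a pentraxin of the acute phase, Ivl (1.52), Slc30a1 (1.45), a zinc exporter, Apon (1.27) and Vgll3 (1.25), a transcription cofactor whose HGF arrays lay near background. The largest decreases were those of Ddit3 (-1.59), Herpud1 (-1.40), Slc25a36 (-1.34), a mitochondrial carrier near background at 8 h, Marcks (-1.32), a substrate of protein kinase C, and Sel1l (-1.23). The call for Ivl was lost without HGF replicate 2 of 8 h (1.44), combination replicate 2 of 8 h (1.35) and combination replicate 2 of 16 h (1.09).

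At 8 h 360 genes had a difference from IL-6 that was not the same with and without HGF. The highest values were those of Pck1 (1.73), the gluconeogenic enzyme, D630004K10Rik (1.23), Ptgfr (1.09), a prostaglandin receptor, Denn2b (1.08) and Fmo1 (1.06), a flavin monooxygenase. Pck1 read 6.17 and 5.94 on the unstimulated arrays, 4.03 and 4.70 with IL-6, 4.09 and 3.62 with HGF and 4.03 and 3.77 with both. The IL-6, HGF and combination arrays thus lay together below the unstimulated arrays, and below the array medians, so the size of 1.73 is measured against levels near background. The call for Pck1 was lost without HGF replicate 2 (1.49), combination replicate 1 (1.59) and IL-6 replicate 1 (1.39). Denn2b showed another order, at 7.99 and 8.01 unstimulated, 8.34 and 8.26 with IL-6, 6.51 and 6.71 with HGF and 7.96 and 8.03 with both. The HGF arrays were the low ones, and IL-6 raised the gene by 0.30 without HGF and by 1.38 with it. Ptgfr was below the array medians on all 8 arrays of 8 h, the unstimulated ones included (4.44 and 4.45), so its value and rank rest on levels near background. The call for Ptgfr was lost without 7 of the 8 arrays of 8 h (0.91 to 1.12).

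The lowest values at 8 h were those of Ivl (-1.39), Cxcl3 (-1.37), a chemokine for neutrophils, Plat (-1.24), Hectd2 (-1.13) and Slc39a10 (-1.0), a zinc importer. Slc39a10 read 8.10 and 8.12 unstimulated, 10.26 and 10.43 with IL-6, 9.57 and 9.49 with HGF and 10.77 and 10.75 with both. IL-6 raised it by 2.23 without HGF and by 1.23 with it. The call for Ivl was lost without any 1 of the 8 arrays (-1.56 to -1.23). The call for Cxcl3 was lost without HGF replicate 1, combination replicate 1, IL-6 replicate 1 or either unstimulated array (-1.41 to -1.22). That for Hectd2 was lost without 6 of the 8 arrays (-1.15 to -0.66), and the mean of its probe sets gave -0.19. The other probe set of Plat, near background at a mean of 3.92, differed between combination and HGF arrays by 0.25 at 8 h, against -1.27 for the one used.

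At 16 h 1445 genes passed the same test. The highest were Arg1 (2.40), Csad (2.15), Akr1c6 (1.94), Mtarc1 (1.85) and Baat (1.84), and the lowest Ptgs2 (-2.06), C230037L18Rik (-1.33), Cxcl3 (-1.33), Klf4 (-1.26) and Fam171b (-1.04). Cxcl3 read 4.20 and 4.73 unstimulated, 6.75 and 6.17 with IL-6, 7.92 and 7.93 with HGF and 8.72 and 8.47 with both. Both combination arrays lay above the other arrays of these groups at 16 h, and IL-6 added 2.00 without HGF and 0.67 with it. Its call was lost without combination replicate 2 (-1.21), unstimulated replicate 1 (-1.06) and IL-6 replicate 1 (-1.04) of 16 h. Fam171b read 5.56 and 5.48 with HGF, 4.38 and 4.62 with both, 3.95 and 3.76 with IL-6 and 3.90 and 3.77 unstimulated, the last 3 groups below the array medians.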

How the results depend on the processing

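None of the 292 called values of named genes that were put through the settings changed its direction. Called values outside this set, such as the change between hours of Cxcl10, were not checked in this way. Each array left out leaves its group with 1 array, which is then assumed to vary like the other groups. Over these settings the counts ranged from 1326 to 2145 genes for 8 h, 1499 to 2287 for 16 h, 2766 to 3172 for both hours together, 358 to 682 for the change between hours, and 123 to 435 and 922 to 1529 for the comparison with IL-6 alone at 8 and 16 h. The last comparison at 8 h gave 215 genes with the compared arrays alone, and 240 without a variance trend. The deviations of same-numbered arrays correlated at -0.059 to 0.082, so no pairing by number was seen, though a weak one could be missed. With the replicate block the counts were 2159, 2303, 3310, 623, 365 and 1456 in the order above. With the block within each hour they were 2099, 2264, 3257, 612, 354 and 1419. Of 292 tested values for named genes 238 stayed on their side of the threshold in all settings and 54 lost a call in at least 1. With the mean of probe sets 268 called values kept their call, of which 40 moved by over 1.5 times. Of 64 list counts of 1 to 4 genes at 8 or 16 h, 40 moved by over 1.5 times in some setting. With 2 arrays a group, changes under 1.5-fold were often missed in the simulated data, and for genes near background the intensity limits what a difference can show.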
